A study of Rattus norvegicus with 12 samples.

Results

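The genes described here are the ligands and receptors of the 4 classical axon guidance systems: semaphorins and plexins, ephrins and Eph receptors, Slits and Robos, and netrins and Unc5 receptors. They were matched by symbol, with earlier results of these data known. This gave 65 of the 33294 gene symbols in the count table: 20 semaphorins, 9 plexins, 8 ephrins, 14 Eph receptors, 3 Slits, 3 Robos, 4 netrins and 4 Unc5 receptors. Their RNA was measured in PAC1 cells, a rat pulmonary artery smooth muscle line kept in its more differentiated state by weekly splitting at 1:10. The study reports a lower degree of differentiation in the control cells of this experiment than in those of its other RNA-seq experiment. All 4 groups of 3 poly(A) RNA-seq libraries came from this cell line and received 90 pmol of siRNA by reverse transfection, a repeat dose after 24 h and, per the labels, harvest after a further 48 h. The study itself gives longer times. The control group received C2, a scrambled siRNA, and the others an siRNA against RBPMS, an RNA-binding protein most abundant in smooth muscle (RBPMS-KD), or against RBFOX2 or QKI, RNA-binding proteins of wider distribution (RBFOX2-KD and QKI-KD). All 3 proteins regulate splicing. Each knockdown rests on 1 siRNA in 1 cell line.

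Guidance ligands steer growing axons and migrating cells by attraction or repulsion, and most act through receptors that remodel the actin cytoskeleton. Plexins bind semaphorins, class 3 semaphorins mostly with the help of a neuropilin, and act on small GTPases. Ephrins are membrane-bound ligands of the Eph receptor tyrosine kinases, Slits bind Robos, and netrins act through Dcc, neogenin and the Unc5 receptors. All 4 systems are also used in blood vessels, where they pattern endothelial cells and smooth muscle. In these cells the semaphorin Sema7a fell while the semaphorin Sema3b and the netrin receptor Unc5c rose in all 3 knockdowns, the plexins Plxnb1, Plxnd1 and Plxna4 fell in all 3 and Plxna3 in RBPMS-KD and QKI-KD, and the netrin receptor Unc5b and the Slit receptor Robo1 fell most in QKI-KD.

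The siRNAs are shown because each group is defined by 1 of them. They are printed 5′ to 3′, and capitals mark bases shared with the forward primer that the study used to measure the same transcript.
C2: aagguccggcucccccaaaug
RBPMS: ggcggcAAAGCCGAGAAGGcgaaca
RBFOX2: gcaaugguucagccuuuua
QK: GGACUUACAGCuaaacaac

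Each target fell in its own knockdown. Levels are given as CPM (counts relative to the TMM-adjusted library total) and changes as log2 fold changes against control. Rbpms went from 40.7 ± 2.60 (SD, n = 3) to 7.21 ± 0.301 CPM, Rbfox2 from 154 ± 4.37 to 37.3 ± 0.943 CPM, and Qk, the gene symbol of QKI, from 233 ± 7.04 to 26.6 ± 0.649 CPM. Rbpms was also lower in RBFOX2-KD and QKI-KD, with log2 fold changes of −0.81 and −0.49.

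Libraries held 111 to 152 M counts, which exceed the number of fragments sequenced if both mates of a pair were counted, a point the sources used here do not settle. The 65 guidance genes took 0.254% to 0.270% of them in control, 0.193% to 0.221% in RBPMS-KD, 0.233% to 0.241% in RBFOX2-KD and 0.177% to 0.180% in QKI-KD. RBPMS-KD 2 stood apart from the other RBPMS-KD libraries, with a chi-square per degree of freedom of 57.8 and 45.6 against 9.27 between the other two, and it was the lowest of its group for 39 of the 57 guidance genes tested (68.4%, against 37.7% of all genes). Control 3 was the highest control library for 28 (49.1%, against 36.7% of all genes). In the other groups 1 library also led: RBPMS-KD 1 was highest for 34 (59.6%, against 31.3%), RBFOX2-KD 1 for 32 (56.1%, against 34%) and QKI-KD 2 for 29 (50.9%, against 37.2%).

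Smooth muscle markers, 8 of 8 tested, summed to 2109.5 to 2175 CPM in control, 1069 to 1176 in RBPMS-KD, 827 to 925 in RBFOX2-KD and 1441 to 1526 in QKI-KD. Acta2, Tagln and Myl9 made up most of this sum, and the members did not all move the same way: 6 fell and 2 rose in RBPMS-KD, 5 fell and 2 rose in RBFOX2-KD, and 5 fell and 2 rose in QKI-KD. Myh11, the smooth muscle myosin heavy chain, rose in all 3 knockdowns, from 6.48 CPM to 8.23, 13.4 and 7.38 CPM. Myocd, a coactivator of contractile genes, rose from 22.1 to 38.1 CPM in QKI-KD, where Tagln had 704 CPM against 687 (adjusted p = 0.592), and Smtn rose from 126 to 142 CPM in RBFOX2-KD. Of the neuronal markers, Rbfox3 and Snap25 were near 0, and Stmn2 and Map2 made up most of the sum. This was 168 to 189 CPM in control, 168 to 193 in RBPMS-KD, 108 to 116 in RBFOX2-KD and 80.2 to 102 in QKI-KD. Of 6 tested, 3 fell and 1 rose in RBPMS-KD, 4 fell and none rose in RBFOX2-KD, and 3 fell and 2 rose in QKI-KD. In RBPMS-KD Stmn2 rose from 116 to 144 CPM while Map2 fell from 54.8 to 33.5 CPM.

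Markers of other cell types were partly silent and partly not. The endothelial Kdr, Emcn and Cldn5, the macrophage Ptprc, Adgre1 and Itgam, the Schwann cell Sox10 and Foxd3 and the epithelial Krt5 and Krt18 were at or near 0 in all groups. The 8 endothelial markers summed to 8.75 to 10.8 CPM in control, 8.90 to 9.20 in RBPMS-KD, 5.29 to 5.86 in RBFOX2-KD and 6.54 to 6.86 in QKI-KD, mostly Cdh5, which fell from 6.77 to 2.98 CPM in QKI-KD. The 6 macrophage markers summed to 37.9 to 39.6, 52.5 to 59.99, 53.0 to 54.4 and 43.7 to 44.7 CPM in the same order, mostly Cd14, while Csf1r rose from 0.405 to 3.63 CPM in QKI-KD. The 6 Schwann cell markers summed to 5.35 to 5.86, 5.28 to 6.48, 6.08 to 6.65 and 7.71 to 8.03 CPM, and Erbb3 among them rose from 2.74 to 6.02 CPM in QKI-KD. The 5 epithelial markers summed to 29.5 to 31.7, 36.3 to 44.2, 72.0 to 73.9 and 32.3 to 34.3 CPM, nearly all of it Krt8. In bulk RNA, fewer cells of a type and less RNA per cell cannot be told apart, and the part of these marker levels in the results below was not tested.

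Of the 65 genes, 57 passed the filter on low counts. The other 8 (Epha5, Epha6, Epha8, Ephb1, Ntn5, Plxnb3, Robo3 and Unc5d) never had more than 12 counts in a library, and Robo3 had none. A mean of at least 1 CPM over the 12 libraries was reached by 45 genes and of at least 5 CPM by 32. Gene length was not used here, so levels are compared between groups and never between genes.

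A gene was called when edgeR's quasi-likelihood test gave a Benjamini-Hochberg adjusted p under 0.05 over all 18438 genes tested and the log2 fold change was above 1 or below −1. "Rose" and "fell" are used where the adjusted p alone passed. In QKI-KD 21 of the 57 guidance genes were called (36.8%, against a background of 17.5% of all genes tested), with 5 higher (8.77%, background 8.28%) and 16 lower (28.1%, background 9.24%). In RBPMS-KD 13 were called (22.8%, background 9.66%), 2 higher (3.51%, background 5.16%) and 11 lower (19.3%, background 4.5%). In RBFOX2-KD 11 were called (19.3%, background 11.7%), 5 higher (8.77%, background 6.96%) and 6 lower (10.5%, background 4.73%), or 5 and 4 when libraries were scaled by their totals alone. The share called higher was thus near the background in all 3 knockdowns, and the share called lower was above it in all 3. Because the genes were chosen with earlier results of these data known, these shares only describe them. The 3 comparisons share the same control libraries. Without control 3 the counts were 13 for RBPMS-KD, 9 for RBFOX2-KD and 19 for QKI-KD (background 8.62%, 10.8% and 16.6%). Without RBPMS-KD 2 the RBPMS-KD count was 12 (background 9.28%). The study's methods call its replicates independent biological ones, while the labels only number them, and the p-values measure the spread between these libraries.

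**Figure D1:**
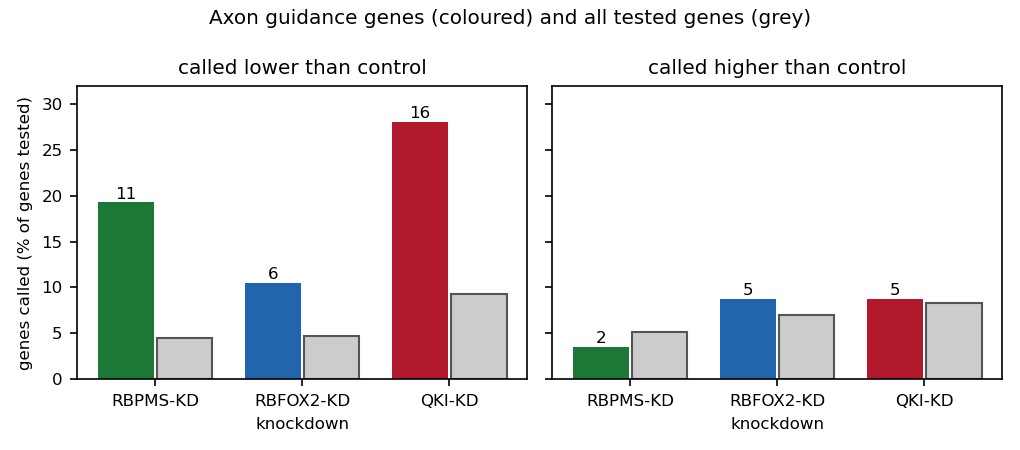
Share of genes called lower (left) and higher (right) than control, in percent of genes tested (y axis), in each knockdown (x axis). Coloured bars are the 57 guidance genes tested, with the number called above each, and grey bars are all 18438 genes tested. The coloured bars stand above the grey ones for lower calls, with 11, 6 and 16 genes, and differ less for higher calls.

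The adjusted p alone was passed by 43 guidance genes in RBPMS-KD (75.4%, background 59.4%), 34 in RBFOX2-KD (59.6%, background 60.3%) and 42 in QKI-KD (73.7%, background 66.9%). Of these, 33 fell and 10 rose in RBPMS-KD (57.9% and 17.5% of those tested, background 29% and 30.4%), and 29 fell and 13 rose in QKI-KD (50.9% and 22.8%, background 34% and 32.9%). In RBFOX2-KD 18 fell and 16 rose (31.6% and 28.1%, background 30.1% each way). Without the called genes, 22 fell and 8 rose in RBPMS-KD (38.6% and 14%, background 24.5% and 25.2%), 12 fell and 11 rose in RBFOX2-KD (21.1% and 19.3%, background 25.4% and 23.2%), and 13 fell and 8 rose in QKI-KD (22.8% and 14%, background 24.8% and 24.6%). The smaller falls were thus above the background in RBPMS-KD and near it in QKI-KD. The median log2 fold change over the 57 genes was −0.35, −0.08 and −0.26 in RBPMS-KD, RBFOX2-KD and QKI-KD, with a median over all genes of 0.01 in each. Of these genes 26 were called in at least 1 knockdown (45.6%, background 26.7%), 11 in 1 (19.3%, background 17.4%), 11 in 2 (19.3%, background 6.32%) and 4 in all 3 (7.02%, background 2.94%). None was called higher in 1 knockdown and lower in another, which is also rare among all genes (0.651%). Called in all 3 were Sema3b and Unc5c, both higher, and Sema7a and Sema6c, both lower.

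**Figure D2:**
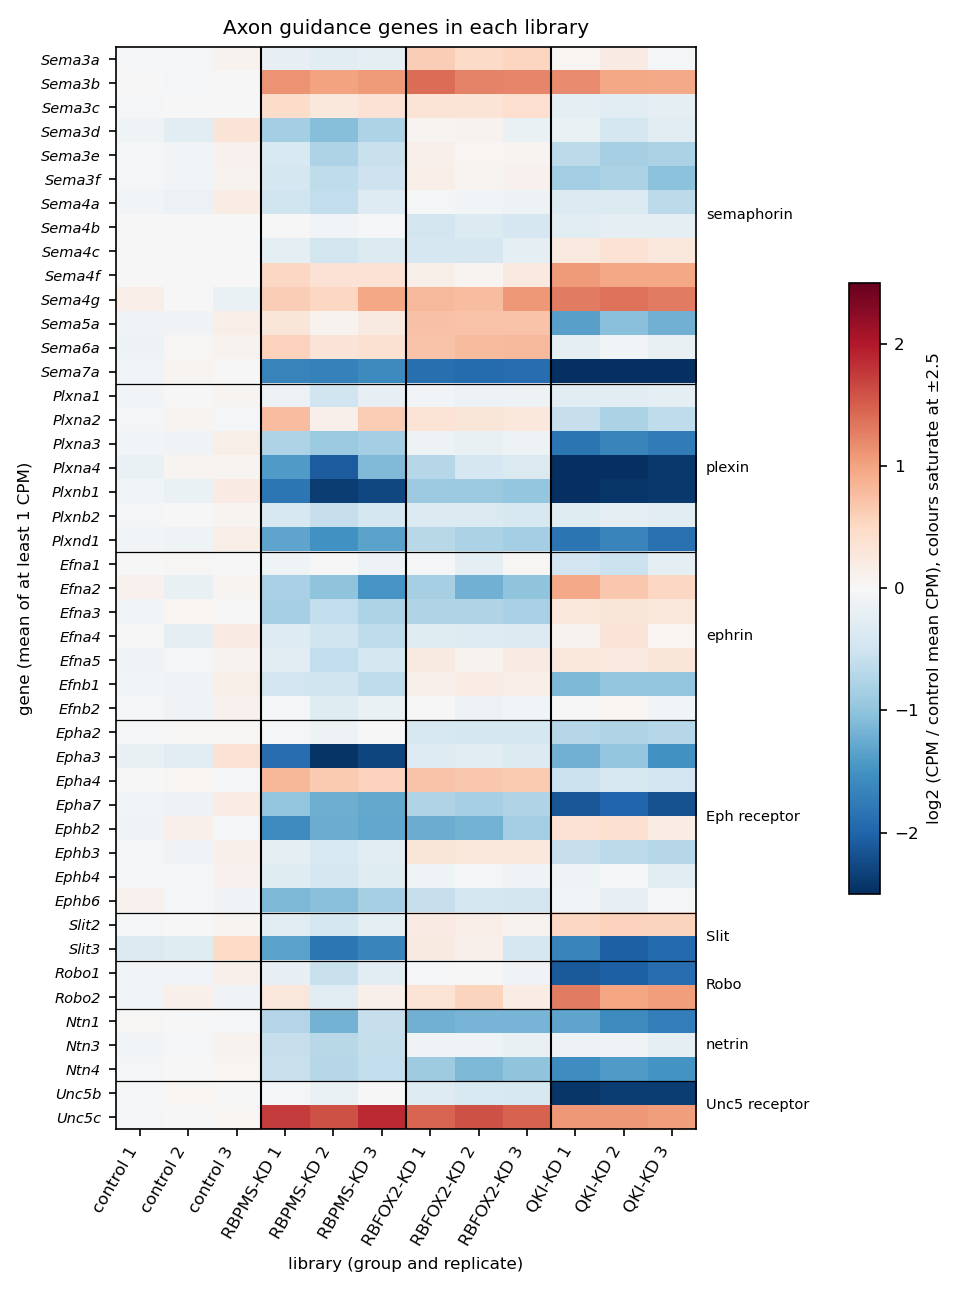
Level of the 45 guidance genes that averaged 1 CPM or more (rows, by family) in each of the 12 libraries (columns), as log2 of CPM over the control mean, red for higher and blue for lower. Blue dominates the plexin rows under RBPMS-KD and QKI-KD, and Sema3b and Unc5c are red in all 9 knockdown libraries.

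Semaphorins are the largest family here, and all 20 were tested. In RBPMS-KD 1 was called higher and 3 lower (20% in all, background 9.66%), in RBFOX2-KD 1 and 2 (15%, background 11.7%), and in QKI-KD 3 and 4 (35%, background 17.5%). Sema7a, a membrane-anchored semaphorin that binds plexin C1 and integrin beta-1, had 14.3, 15.8 and 15.1 CPM in the control libraries. It had 4.71, 4.66 and 5.03 CPM in RBPMS-KD, 4.06, 3.99 and 4.04 in RBFOX2-KD, and 2.51, 2.15 and 2.07 in QKI-KD. No knockdown library came near the control range, and the QKI-KD libraries were the lowest. The log2 fold changes were −1.65 (SE 0.071, adjusted p = 3.53e-12), −1.90 (SE 0.071, adjusted p = 4.00e-13) and −2.74 (SE 0.076, adjusted p = 4.05e-15).

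Sema3b, a secreted class 3 semaphorin, moved the other way. Its control libraries had 9.83, 9.55 and 9.75 CPM. The RBPMS-KD libraries had 21.2, 19.5 and 20.3 CPM, the RBFOX2-KD libraries 25.4, 23.1 and 22.6, and the QKI-KD libraries 22.1, 18.9 and 18.8, so all 9 lay above control by a wide margin. The log2 fold change was 1.07 (SE 0.065) in RBPMS-KD, 1.29 (SE 0.064) in RBFOX2-KD and 1.04 (SE 0.064) in QKI-KD, and the last was 0.96 without QKI-KD 1, which ends that call. Sema6c, a transmembrane ligand of A-type plexins, had 1.94 ± 0.188 CPM in control and 0.571 ± 0.0762, 0.594 ± 0.107 and 0.717 ± 0.158 CPM in RBPMS-KD, RBFOX2-KD and QKI-KD, with log2 fold changes of −1.76, −1.70 and −1.44.

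Promoter sequences are shown for the guidance genes called lower in all 3 knockdowns, since these moved together. They run from 250 bases before to 50 after the start site in RefSeq on GRCr8, a later assembly than that used for the counts, and Sema3b and Unc5c had no entry. Capitals mark GC boxes, the letters GGGCGG on either strand.
Sema6c, chr2:185426236-185426535, plus strand: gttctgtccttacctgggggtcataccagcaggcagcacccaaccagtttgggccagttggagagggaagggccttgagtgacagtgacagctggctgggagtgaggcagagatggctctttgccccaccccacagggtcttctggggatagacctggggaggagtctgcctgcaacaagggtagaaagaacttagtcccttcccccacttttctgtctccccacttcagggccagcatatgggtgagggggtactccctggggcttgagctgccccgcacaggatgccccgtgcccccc
Sema7a, chr8:67244068-67244367, plus strand: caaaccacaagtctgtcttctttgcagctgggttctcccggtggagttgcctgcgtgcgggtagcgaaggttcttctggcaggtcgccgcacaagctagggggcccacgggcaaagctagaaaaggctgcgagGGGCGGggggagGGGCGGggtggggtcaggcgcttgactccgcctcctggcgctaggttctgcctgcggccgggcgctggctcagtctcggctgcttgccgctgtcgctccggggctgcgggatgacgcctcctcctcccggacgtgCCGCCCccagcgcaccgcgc
The Sema7a window held 3 GC boxes with 69.7% G and C, and the Sema6c window none with 61%. Across the 51 promoters found for 50 of the 65 genes, 30 held a GC box (58.8%), against 33.1% of all 33469 promoters of the same length. TATAAA was in none of the 51, against 14.2% of all. The CArG box, the motif read by serum response factor in contractile genes, was in 2 (3.92%, against 1.64%), and the E-box CANNTG in 32 (62.7%, against 72.1%). TGACGTCA was in 1 (1.96%, against 1.83%). Both strands were searched, a CArG box can contain TATAAA, and these matches describe letters only.

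Other semaphorins were called in QKI-KD. Sema5a, a transmembrane semaphorin, had 10.0, 9.97 and 11.8 CPM in control, 13.0, 11.2 and 12.3 in RBPMS-KD, 17.6, 17.3 and 17.3 in RBFOX2-KD and 4.15, 5.14 and 4.59 in QKI-KD. The RBFOX2-KD libraries lay above and the QKI-KD libraries below every control library, with log2 fold changes of 0.72 (SE 0.077) and −1.20 (SE 0.083), and the direct comparison of RBFOX2-KD with QKI-KD gave 1.92 (SE 0.082, adjusted p = 1.38e-12). Sema4f and Sema4g, both transmembrane class 4 members, were called higher in QKI-KD. Sema4f had 5.22 ± 0.0365 CPM in control and 10.4 ± 0.399 in QKI-KD (log2 fold change 1.00, called in 10 of 15 alternative analyses), and Sema4g 1.15 ± 0.131 and 2.88 ± 0.0721 CPM (1.32).

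Sema3c and Sema3f, which act on vascular and neural crest cells through neuropilins, were not called. Sema3c had 149 ± 2.40 CPM in control, 192 ± 13.1 in RBPMS-KD, 191 ± 5.96 in RBFOX2-KD and 126 ± 1.80 in QKI-KD, so it rose in the first pair (log2 fold changes 0.37 and 0.36) and fell in the last (−0.24). Sema3f fell in RBPMS-KD (131 ± 7.69 to 90.6 ± 5.82 CPM, log2 fold change −0.53) and in QKI-KD (70.7 ± 5.48 CPM, −0.89), with 142 ± 4.58 CPM and an adjusted p of 0.0817 in RBFOX2-KD. Sema6d had at most 0.376 CPM in any library and was called lower in RBPMS-KD (log2 fold change −1.02, adjusted p = 0.0471) and in QKI-KD (−1.53, adjusted p = 0.00534). At this depth both are loosely set, the first being called in 6 of 14 alternative analyses and the second at −2.45 once QKI-KD 2 was left out.

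Most plexins, the semaphorin receptors, fell in RBPMS-KD and QKI-KD. Of the 8 tested, 6 fell and 2 rose in RBPMS-KD (75% and 25%, background 29% and 30.4%) and 7 fell and none rose in QKI-KD (87.5% fell, background 34%). In RBFOX2-KD 4 fell and 2 rose (50% and 25%, background 30.1% each way). Their median log2 fold change was −0.66, −0.25 and −1.20 in RBPMS-KD, RBFOX2-KD and QKI-KD. The calls were 3 lower in RBPMS-KD (37.5%, background 4.5%), 1 higher in RBFOX2-KD (12.5%, background 6.96%) and 4 lower in QKI-KD (50%, background 9.24%). Plxna2, an A-type plexin, and Plxnc1 were the members that rose. Plxna2 had 6.89 ± 0.282 CPM in control, 9.98 ± 2.16 in RBPMS-KD, 8.48 ± 0.208 in RBFOX2-KD and 4.35 ± 0.322 in QKI-KD, with log2 fold changes of 0.53, 0.30 and −0.66.

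Plxnb1, the receptor of Sema4d, had 28.0, 26.2 and 33.8 CPM in control, 8.34, 5.70 and 6.03 in RBPMS-KD, 15.7, 15.4 and 15.1 in RBFOX2-KD and 5.19, 5.45 and 5.54 in QKI-KD. Every knockdown library lay below control, and the RBFOX2-KD libraries lay between control and the other knockdowns. The log2 fold changes were −2.14 (SE 0.11, adjusted p = 4.19e-11), −0.93 (SE 0.10, adjusted p = 5.43e-07) and −2.44 (SE 0.11, adjusted p = 3.33e-12). Plxnd1, the receptor of Sema3e in vessels, had the same order, with 109, 107 and 129 CPM in control, 46.3, 40.1 and 45.5 in RBPMS-KD, 70.8, 66.4 and 64.2 in RBFOX2-KD and 32.5, 36.8 and 31.5 in QKI-KD. Against control this gave −1.39 (SE 0.073), −0.78 (SE 0.071) and −1.77 (SE 0.074), and no library of 1 group overlapped another group. Between knockdowns, RBPMS-KD against RBFOX2-KD gave −1.21 (adjusted p = 8.69e-08) for Plxnb1 and −0.61 (adjusted p = 1.63e-06) for Plxnd1.

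Plxna3 and Plxna4, which pair with neuropilins to receive class 3 semaphorins, were lowest in QKI-KD. Plxna3 had 25.0, 24.7 and 29.0 CPM in control, 15.3, 13.9 and 14.6 in RBPMS-KD, 24.2, 23.0 and 24.2 in RBFOX2-KD and 7.41, 8.35 and 7.84 in QKI-KD. It fell in RBPMS-KD and QKI-KD (log2 fold changes −0.85 and −1.74), while RBFOX2-KD gave −0.14 (adjusted p = 0.0571). Plxna4 went from 3.11 ± 0.288 CPM to 1.11 ± 0.352, 2.22 ± 0.278 and 0.469 ± 0.0998 CPM in RBPMS-KD, RBFOX2-KD and QKI-KD, with log2 fold changes of −1.50, −0.48 and −2.73. Their relative Plxna1 went from 199 ± 9.05 CPM to 164 ± 20.2, 184 ± 5.11 and 166 ± 0.976 CPM, with log2 fold changes of −0.27, −0.11 (adjusted p = 0.138) and −0.26. Plxnb2 went from 594 ± 24.9 CPM to 429 ± 25.9, 461 ± 8.5 and 488 ± 10.6 CPM, and fell in all 3 knockdowns without being called (log2 fold changes −0.47, −0.37 and −0.28). Plxnc1, the receptor of Sema7a, was called higher in RBFOX2-KD (log2 fold change 1.66, adjusted p = 3.50e-05) at a mean of 0.226 CPM in control and 0.717 CPM in that knockdown.

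The neuropilins, co-receptors of the class 3 semaphorins, are not part of the families chosen by symbol but form complexes with the A-type plexins. Nrp1 had 109 ± 9.74 CPM in control, 54.0 ± 2.91 in RBPMS-KD, 94.8 ± 0.748 in RBFOX2-KD and 46.0 ± 1.62 in QKI-KD. It was called lower in RBPMS-KD (log2 fold change −1.01) and QKI-KD (−1.24). Nrp2 had 373 ± 28.3, 416 ± 37.3, 241 ± 0.647 and 160 ± 15.9 CPM in the same order and was called lower in QKI-KD (−1.22, adjusted p = 6.31e-11).

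**Figure D3:**
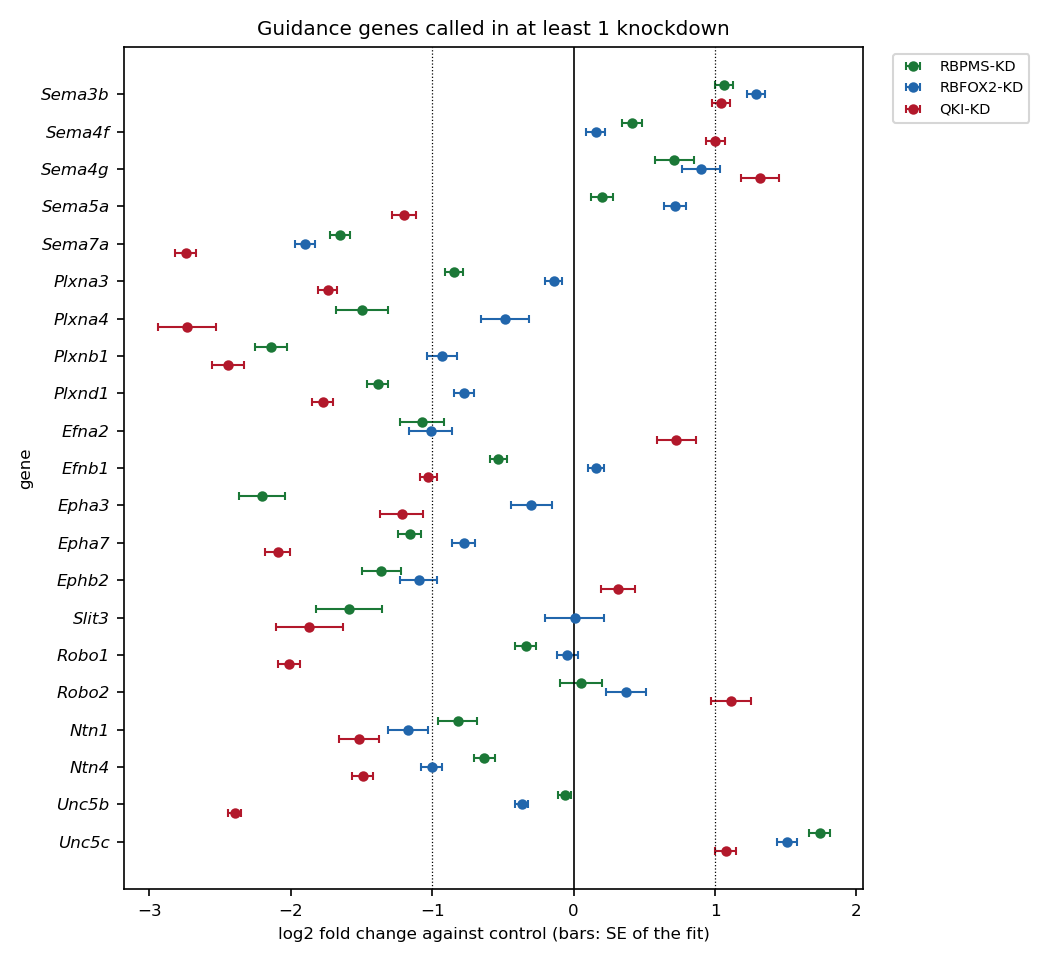
Log2 fold change against control (x axis, bars are the SE of the fit) of the 21 guidance genes (y axis) with a mean of at least 1 CPM that were called in at least 1 knockdown. Dotted lines mark −1 and 1, the limits for a call. Red QKI-KD points lie farthest left for Sema7a, the 4 plexins, Robo1 and Unc5b, and all 3 colours lie right of 1 for Sema3b and Unc5c.

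Of the 3 netrins tested, 3 fell in RBPMS-KD, 2 in RBFOX2-KD and 3 in QKI-KD, and none rose, where 29%, 30.1% and 34% of all genes fell. Ntn1 had 3.09, 3.05 and 2.89 CPM in control, 1.80, 1.32 and 2.01 in RBPMS-KD, 1.32, 1.34 and 1.34 in RBFOX2-KD and 1.21, 1.02 and 0.911 in QKI-KD. Ntn4, a basement membrane netrin, had 9.40, 9.70 and 10.0 CPM in control, 6.56, 5.90 and 6.38 in RBPMS-KD, 5.23, 4.45 and 4.83 in RBFOX2-KD and 3.29, 3.64 and 3.44 in QKI-KD. Both fell in all 3 knockdowns, and for each no knockdown library reached the control range. The log2 fold changes of Ntn1 were −0.82, −1.17 and −1.52 and those of Ntn4 −0.63, −1.004 and −1.49, so both were called in RBFOX2-KD and QKI-KD, Ntn4 in the former in 11 of 15 alternative analyses. Ntn3 had 18.1 ± 1.00 CPM in control and 11.8 ± 0.457 in RBPMS-KD, a log2 fold change of −0.62, and 16.6 ± 0.577 and 16.4 ± 0.799 CPM in RBFOX2-KD and QKI-KD.

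The Unc5 receptors, which mediate repulsion from netrins, differed by member. Unc5c had 3.76, 3.81 and 3.98 CPM in control, 12.9, 11.7 and 14 in RBPMS-KD, 10.5, 11.6 and 10.7 in RBFOX2-KD and 8.19, 8.20 and 7.95 in QKI-KD. All 9 knockdown libraries lay above control, and no group overlapped another, RBPMS-KD and RBFOX2-KD by the narrowest margin. The log2 fold changes were 1.74 (SE 0.072, adjusted p = 2.16e-12), 1.51 (SE 0.071, adjusted p = 8.94e-12) and 1.08 (SE 0.072, adjusted p = 5.36e-10). Unc5b, the vascular member, had 538, 576 and 546 CPM in control and 539, 491 and 558 in RBPMS-KD, which overlapped. It had 444, 424 and 419 CPM in RBFOX2-KD and 102, 107 and 107 CPM in QKI-KD. On the log2 scale the change in QKI-KD was −2.40 (SE 0.046, adjusted p = 5.61e-17), that in RBFOX2-KD −0.37 (SE 0.044), and RBPMS-KD gave −0.06 (adjusted p = 0.222). Set directly against QKI-KD, Unc5b was higher in RBPMS-KD by 2.33 (SE 0.046) and in RBFOX2-KD by 2.03 (SE 0.046). Unc5a was called higher in RBFOX2-KD (1.499) from a level of 0.2 CPM in control. The annotated span of Unc5a overlaps that of Hk3, so its counts are uncertain.

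Of the attractant netrin receptors, Dcc was not tested, with 23 counts over all 12 libraries. Neogenin, Neo1, had 41.5 ± 0.690 CPM in control, 37.6 ± 2.76 and 32.5 ± 0.669 CPM in RBPMS-KD and RBFOX2-KD and 50.1 ± 0.384 CPM in QKI-KD, with log2 fold changes of −0.14, −0.35 and 0.27.

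In the Slit and Robo system, Robo1 fell in QKI-KD while Slit2 and Robo2 rose. Robo1, a Slit receptor, had 63.4, 63.5 and 73.0 CPM in control, 57.9, 45.6 and 54.5 in RBPMS-KD, 65.0, 65.8 and 63.0 in RBFOX2-KD and 15.5, 16.2 and 17.8 in QKI-KD. The QKI-KD libraries stood far below control, the RBPMS-KD libraries somewhat below, and the RBFOX2-KD libraries overlapped it. The log2 fold changes were −0.34 (SE 0.073, adjusted p = 6.87e-04) in RBPMS-KD, −0.04 (SE 0.073, adjusted p = 0.628) in RBFOX2-KD and −2.01 (SE 0.078, adjusted p = 3.18e-13) in QKI-KD. Robo2 had 1.49 ± 0.123 CPM in control and 3.22 ± 0.379 in QKI-KD (1.11, SE 0.14, adjusted p = 1.94e-06), and 1.56 ± 0.283 and 1.93 ± 0.254 CPM in RBPMS-KD and RBFOX2-KD. Slit2, their ligand, had 105, 107 and 113 CPM in control, 90.3, 79.4 and 91.9 in RBPMS-KD, 126, 122 and 115 in RBFOX2-KD and 155, 161 and 159 in QKI-KD. It rose in QKI-KD (log2 fold change 0.55, SE 0.049) and RBFOX2-KD (0.16) and fell in RBPMS-KD (−0.31) without being called.

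Slit3, a relative of Slit2, was lower in RBPMS-KD and QKI-KD. It had 1.76, 1.84 and 3.19 CPM in control, of which control 3 was high, 0.902, 0.650 and 0.719 in RBPMS-KD, 2.65, 2.48 and 1.70 in RBFOX2-KD and 0.715, 0.548 and 0.589 in QKI-KD. It was called in both, with log2 fold changes of −1.59 (SE 0.23) and −1.87 (SE 0.24), or −1.26 and −1.54 without control 3.

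**Figure D4:**
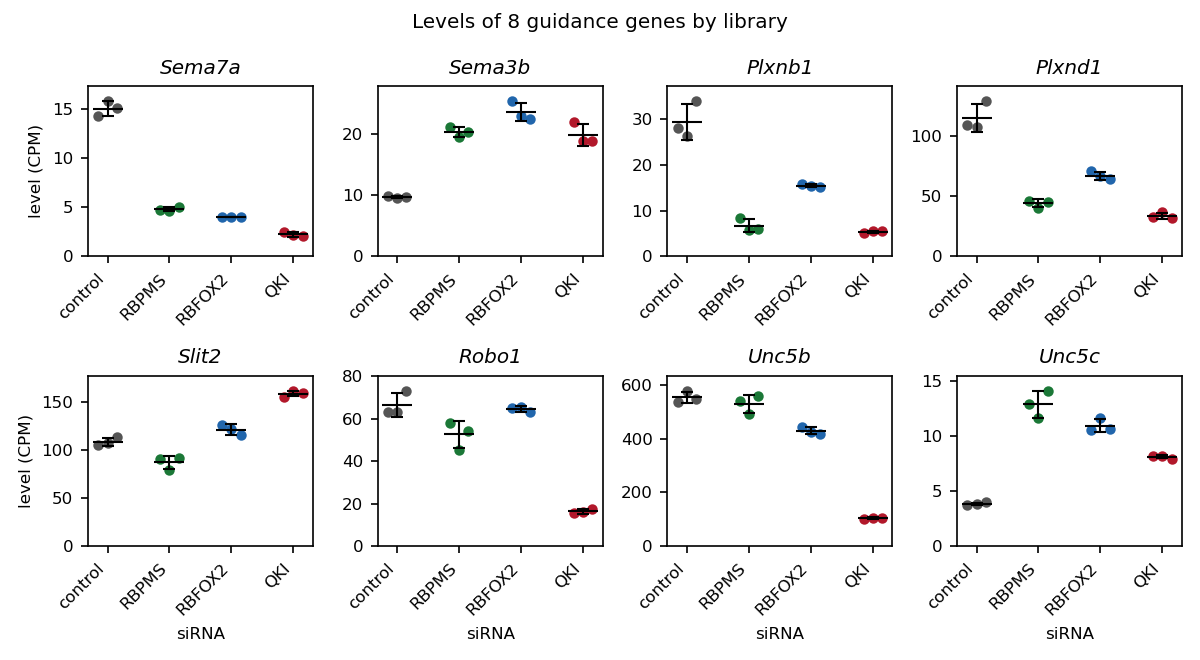
CPM (y axis, from 0) of 8 guidance genes in each library by siRNA group (x axis), with points for libraries, a horizontal line for the mean and bars for the SD of 3 libraries. In QKI-KD Unc5b and Robo1 sit near 105 and 16.5 CPM while Slit2 is at its highest, and in all 3 knockdowns Sema3b and Unc5c lie above and Sema7a, Plxnb1 and Plxnd1 below control.

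Of the Eph receptors, 10 of 14 were tested. In RBPMS-KD 3 were called lower (30%, background 9.66%), in RBFOX2-KD 1 higher and 1 lower (20% in all, background 11.7%), and in QKI-KD 2 lower (20%, background 17.5%). Epha3, an ephrin-A receptor, had 17.8, 16.7 and 26.0 CPM in control, 5.36, 3.71 and 4.10 in RBPMS-KD, 16.2, 16.9 and 16.0 in RBFOX2-KD and 8.75, 10.2 and 7.08 in QKI-KD. The RBPMS-KD libraries were the lowest and the RBFOX2-KD libraries overlapped the control range. The log2 fold changes were −2.21 (SE 0.16, adjusted p = 3.35e-09), −0.30 (SE 0.15, adjusted p = 0.0847) and −1.22 (SE 0.15, adjusted p = 1.57e-06), the last being −0.99 without control 3, which ends that call. Directly, RBPMS-KD against RBFOX2-KD gave −1.91 (SE 0.16, adjusted p = 3.25e-08).

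Epha7, a close relative, fell in all 3 knockdowns, from 26.0 ± 3.00 CPM to 11.7 ± 1.28 CPM in RBPMS-KD, 15.2 ± 0.543 in RBFOX2-KD and 6.11 ± 0.464 in QKI-KD, and was called in RBPMS-KD (−1.16) and QKI-KD (−2.09). Ephb2, a receptor of B-type ephrins, had 1.95, 2.28 and 2.00 CPM in control, 0.696, 0.880 and 0.846 in RBPMS-KD, 0.882, 0.911 and 1.13 in RBFOX2-KD and 2.66, 2.74 and 2.37 in QKI-KD. It was called lower in RBPMS-KD (−1.36) and RBFOX2-KD (−1.10), with 0.31 (adjusted p = 0.0330) in QKI-KD. Epha2, which has roles in epithelium and vessels, fell from 182 ± 4.77 CPM to 135 ± 1.71 in RBFOX2-KD and 110 ± 1.21 in QKI-KD, and had 175 ± 7.31 CPM in RBPMS-KD (adjusted p = 0.202). Ephb3 had 18.1 ± 1.34 CPM in control and fell in RBPMS-KD (14.9 ± 0.808 CPM) and QKI-KD (11.5 ± 0.571 CPM) but rose in RBFOX2-KD (22.0 ± 0.400 CPM). Epha10 was called higher in RBFOX2-KD (log2 fold change 1.27) from 0.429 CPM in control. Just inside and just outside the limit of 1 lay Efna2 in RBFOX2-KD at −1.01 and Ephb6 in RBPMS-KD at −0.99.

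Among the 8 ephrins, Efna2 and Efnb1 were called. This was 1 lower in each knockdown (12.5%), near or below the background of 9.66%, 11.7% and 17.5% in RBPMS-KD, RBFOX2-KD and QKI-KD. Efna2, an ephrin-A ligand, had 2.98, 2.46 and 2.91 CPM in control, 1.58, 1.38 and 1.00 in RBPMS-KD, 1.55, 1.20 and 1.38 in RBFOX2-KD and 5.34, 4.44 and 4.0 in QKI-KD. The RBPMS-KD and RBFOX2-KD libraries lay below and the QKI-KD libraries above every control library, with log2 fold changes of −1.07 (SE 0.16), −1.01 (SE 0.15) and 0.73 (SE 0.14, adjusted p = 2.07e-04). Efna3 was likewise lower than control in RBPMS-KD and RBFOX2-KD and higher in QKI-KD, with 4.31 ± 0.180 CPM in control, 2.58 ± 0.208 in RBPMS-KD, 2.52 ± 0.0618 in RBFOX2-KD and 5.22 ± 0.0646 in QKI-KD. Efnb1, a transmembrane ephrin, had 29.6 ± 2.57 CPM in control, 20.5 ± 1.12 in RBPMS-KD, 33.1 ± 0.562 in RBFOX2-KD and 14.5 ± 0.781 in QKI-KD, where it was called (−1.03). Efnb2, the arterial ephrin, had log2 fold changes from −0.17 to 0.00, with 102 ± 7.40, 90.4 ± 7.97, 97.3 ± 5.00 and 102 ± 3.94 CPM in control, RBPMS-KD, RBFOX2-KD and QKI-KD.

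By role, receptors were called lower in 6, 1 and 8 cases of 23 in RBPMS-KD, RBFOX2-KD and QKI-KD (26.1%, 4.35% and 34.8%, background 4.5%, 4.73% and 9.24%) and higher in 1, 4 and 2 (4.35%, 17.4% and 8.70%, background 5.16%, 6.96% and 8.28%). Ligands were called lower in 5, 5 and 8 cases of 34 (14.7%, 14.7% and 23.5%) and higher in 1, 1 and 3 (2.94%, 2.94% and 8.82%). Receptor calls were thus near the background for lower calls in RBFOX2-KD and for higher calls in RBPMS-KD and QKI-KD. In RBFOX2-KD receptor calls were mostly higher and ligand calls mostly lower, a difference that was not tested, and 3 of those 4 receptors, Epha10, Plxnc1 and Unc5a, averaged under 1 CPM.

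The remaining 31 tested genes were called in no knockdown, and 25 of them passed the adjusted p alone in at least 1. The matching share over all genes was not counted. Of all genes, 59.4%, 60.3% and 66.9% passed in RBPMS-KD, RBFOX2-KD and QKI-KD. Log2 fold changes of the 31 ran from −0.99 (Ephb6) to 0.69 (Epha4) in RBPMS-KD, from −0.93 (Sema4d) to 0.77 (Sema6a) in RBFOX2-KD and from −0.89 (Sema3f) to 0.67 (Sema6b) in QKI-KD. The 6 that passed in none, Efnb3, Epha1, Sema3g, Sema4d, Sema5b and Slit1, each had a mean under 1 CPM. Other genes under 1 CPM, such as Sema6c and Epha10, were called, and the part of depth was not tested.

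The knockdowns were also compared with each other, which needs no control library. Between RBFOX2-KD and QKI-KD 17 guidance genes were called (29.8%, background 18.4%), 13 of them higher in RBFOX2-KD (22.8%, background 10.6%) and 4 lower (7.02%, background 7.74%). Of the 23 receptors, 9 were called higher in RBFOX2-KD than in QKI-KD (39.1%) and 1 lower (4.35%), with a median log2 difference of 0.93. Between RBPMS-KD and QKI-KD 11 were called (19.3%, background 12.2%), 7 higher in RBPMS-KD and 4 lower (12.3% and 7.02%, background 6.53% and 5.66%, or 6 and 7 with library totals alone), with Unc5b, Robo1 (1.67), Sema5a (1.40) and Sema7a (1.09) among the higher and Efna2 (−1.80) and Ephb2 (−1.68) among the lower. Between RBPMS-KD and RBFOX2-KD 6 were called, all lower in RBPMS-KD (10.5%, background 7.52% in either direction, 4.41% lower and 3.1% higher), among them Epha3, Plxnb1 and Slit3 (−1.60). The adjusted p alone was passed by 36, 42 and 43 genes in RBPMS-KD against RBFOX2-KD, RBPMS-KD against QKI-KD and RBFOX2-KD against QKI-KD (63.2%, 73.7% and 75.4%, background 56.7%, 61% and 68.5%). A gene called in 1 knockdown and not in another is shown to differ only by these direct tests. Plxna4 (2.25), Slit3 (1.88) and Plxna3 (1.60) were higher in RBFOX2-KD than in QKI-KD, and Efna2 (−1.74), Ephb2 (−1.41) and Efna3 (−1.05) lower.

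Beyond the 65 genes, 24 co-receptors and other cues and 68 intracellular effectors of the same systems were counted from textbook lists. Of 19 co-receptors and cues tested, 2 were called lower and none higher in RBPMS-KD (10.5% in all, background 9.66%), 2 lower and 1 higher in RBFOX2-KD (15.8%, background 11.7%), and 6 lower and 2 higher in QKI-KD (42.1%, background 17.5%). Itgb1, the integrin subunit that serves as a Sema7a receptor, fell in RBFOX2-KD from 2147 ± 28.3 to 335 ± 6.99 CPM, a log2 fold change of −2.68 (SE 0.031), with 1708 ± 34.3 and 1959 ± 13.1 CPM in RBPMS-KD and QKI-KD. Rgma, a repulsive ligand of neogenin, fell in QKI-KD from 21.5 ± 1.25 to 5.89 ± 0.581 CPM (−1.87), and Flrt2, a Unc5 ligand, rose there from 87.5 ± 5.78 to 193 ± 7.89 CPM (1.14). Itga1, a partner of Itgb1, was called higher in RBFOX2-KD (1.07). It had 36.0 CPM in control and 67.6, 75.9 and 55.0 CPM in RBPMS-KD, RBFOX2-KD and QKI-KD.

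Of 66 intracellular effectors tested, 1 was called lower and none higher in RBPMS-KD (1.52% in all, background 9.66%), 2 lower and 2 higher in RBFOX2-KD (6.06%, background 11.7%), and 5 lower and 3 higher in QKI-KD (12.1%, background 17.5%). The adjusted p alone was passed by 42, 55 and 52 of them (63.6%, 83.3% and 78.8%, background 59.4%, 60.3% and 66.9%). Srgap3, a Slit and Robo GTPase-activating protein, had 17.7 ± 2.10 CPM in control, 19.7 ± 4.17 in RBPMS-KD, 39.7 ± 0.970 in RBFOX2-KD and 3.93 ± 0.270 in QKI-KD, with log2 fold changes of 1.16 in RBFOX2-KD and −2.17 in QKI-KD. Pak3, a kinase downstream of Rac, had 18.2 ± 0.607 CPM in control and 4.07 ± 0.420 in QKI-KD (−2.16). Crmp1, a mediator of semaphorin signals, had 9.35, 5.14, 3.85 and 5.49 CPM in control, RBPMS-KD, RBFOX2-KD and QKI-KD. It was called lower in RBFOX2-KD (−1.28). The kinase gene Gsk3b had 73.3, 122, 157 and 56.0 CPM in the same order and was called higher in RBFOX2-KD (1.10). Rnd1, a GTPase that binds plexins, was called higher in QKI-KD (1.01).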

How the data were processed

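RNA from 12 libraries, 4 groups of 3 taken from the sample titles, was analysed from 2 tables. Per the study's methods, the authors aligned reads with STAR (2.5.2a per the submitters' processing notes) to mRatBN7.2, counted genes with featureCounts and deposited raw counts. They also deposited a normalised signal, made by a noise filter and quantile normalisation, which was used only in an alternative analysis. Whether counting used strand, and how reads shared by paralogues or overlapping genes were treated, is not given in the sources used here. In a RefSeq table of GRCr8 the spans of 35 of the 65 genes overlap another gene and 7 a protein-coding one (Epha1, Ephb4, Ntn5, Robo3, Sema5a, Sema6a and Unc5a), so their values are uncertain to that extent. Of the counts from 1 to 19, 68.1% were even, against 50.9% of those above 1000, and halved counts were tried as an alternative chosen after seeing the data. The study's methods describe reducing all libraries to a common number of reads before alignment. The deposited totals, however, are unequal, and all exceed the numbers of reads given there, before or after that step. Whether the reduced reads were counted, and whether mates were counted singly, is not given in the sources used here, so the number of independent fragments may be below the counts.

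The raw counts went into edgeR 4.0.16 (R 4.3.3): filterByExpr with group as factor, TMM scaling, 1 fit over 12 libraries with 1 coefficient per group (common dispersion 0.00241), glmQLFit and glmQLFTest, two-sided, with Benjamini-Hochberg adjustment over 18438 genes that held 99.99% of counts. The SE is the absolute log2 fold change divided by the square root of F. An exact permutation test of 1 gene, 3 libraries against 3, cannot go below 0.1, so adjusted p rest on the model. Totals of 111 to 152 M counts set the precision, and replicate pairs differed by more than sampling noise (chi-square per degree of freedom 4.64 to 57.8). Scripts were tested on simulated data. Alternatives used DESeq2 1.42.0, limma 3.58.1 on log2(value + 1) of the deposited signal, other scalings and filters, and left out each library in turn.

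Genes named in the text were those called in at least 1 knockdown at a mean of 1 CPM or more, any at 5 CPM or more that passed in none (there were 0), the 2 with the highest mean CPM of each family, those called under 1 CPM, the siRNA targets, Nrp1, Nrp2, Dcc and Neo1, and the 3 largest rises and falls per knockdown among called pathway genes whose mean was 5 CPM or more. Efna3, Epha1, Epha4, Ephb6, Plxna2 and the other genes given as ends of a range or as not passing were added after their values were seen. The members and lists were chosen with earlier results of these data known. Splicing was not analysed here.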

Additional observations from a re-analysis of the deposited data

How the results depend on the processing

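With the adjusted p alone, the numbers of guidance genes passing were 43 for RBPMS-KD, 34 for RBFOX2-KD and 42 for QKI-KD against control, and 36, 42 and 43 for RBPMS-KD against RBFOX2-KD, RBPMS-KD against QKI-KD and RBFOX2-KD against QKI-KD. Keeping only genes with a mean of at least 200 counts left 44 of the 57. Calls in RBFOX2-KD then went from 11 to 5, while the background went from 11.7% to 6.86% of genes tested. Those in RBPMS-KD against RBFOX2-KD went from 6 to 3, with a background going from 7.52% to 3.55%. Of the genes called in RBFOX2-KD, Sema6c, Epha10, Plxnc1 and Unc5a were no longer tested, which makes up only part of the first drop. Leaving out each library in turn gave 12 to 14 calls for RBPMS-KD (background 8.62% to 9.58%), 9 to 12 for RBFOX2-KD (10.8% to 11.2%) and 18 to 21 for QKI-KD (16.6% to 17.1%). The direct comparisons gave 5 to 7, 10 to 12 and 16 to 20 calls (background 6.75% to 7.43%, 11.3% to 11.8% and 17.4% to 17.8%). DESeq2, other scalings, no filter, halved counts, the 6 libraries of a comparison alone and the deposited signal kept every count within 1.5 times. The background moved more in some, with DESeq2 to 5.62%, 6.63% and 10% in RBPMS-KD, RBFOX2-KD and QKI-KD, where low-count genes stayed in the denominator. Library totals moved the median of all genes by at most 0.0857.

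With the replicate number as a block the counts were 12, 11, 20, 6, 11 and 18 (background 9.5%, 11.4%, 17.4%, 7.38%, 12% and 18.2%). Among the named genes the block changed the side of the adjusted p only for Sema6d in RBPMS-KD (0.0533). The labels give only the number. Correlations of same-numbered libraries ran from −0.21 to 0.157, above 0.1 in 2 of 18 pairs, and 3 of 12 libraries correlated best with their own number.

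Of 1557 log2 fold changes of the named genes over the alternatives, 1458 kept direction and side of the threshold, 47 lost and 24 gained the threshold and 28 changed sign, none of which had passed it. For these, library totals gave −0.0157 for Epha10 and −0.0216 for Unc5a in RBPMS-KD, 0.0106 for Robo1 in RBFOX2-KD and 0.0455 for Unc5a in QKI-KD. The deposited signal gave −0.0415 for Unc5a in RBPMS-KD. Slit3 in RBFOX2-KD was −0.000766 with RLE size factors, −0.0012 with DESeq2 and −0.00549 without the filter. Efnb2 in QKI-KD was −0.0114 without the filter and −0.00146 with 6 libraries, and Unc5a was 0.00602 with halved counts. With single libraries left out, the values ran in RBPMS-KD from −0.158 to 0.144 for Epha10, −0.0654 to 0.196 for Robo2 and −0.228 to 0.294 for Unc5a, in RBFOX2-KD from −0.0801 to 0.0247 for Robo1 and −0.142 to 0.336 for Slit3, and in QKI-KD from −0.0418 to 0.0601 for Efnb2 and −0.291 to 0.218 for Unc5a. The cause was not tested. Calls near the limit of 1 were the least stable: Efna2 and Ntn4 in RBFOX2-KD held in 9 and 11 of 15 alternatives, Efnb1 and Sema4f in QKI-KD in 10 of 15, and Sema6d in RBPMS-KD in 6 of 14. Whether genes under 1 CPM are limited most by depth was not tested.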
